A study of Mus musculus with 110 samples.

Results

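Epididymal white adipose tissue (eWAT), the large fat pad beside the testis and epididymis of male mice, was compared between animals that were short of methionine in the cold and animals that were cold alone. The libraries were taken by their labels, 7 of methionine-restricted, cold-exposed mice (MetR_CE) and 7 of control-fed, cold-exposed mice (Ctrl_CE), 14 of the 110 libraries of the series, which cover liver, brown fat, inguinal white fat (iWAT) and eWAT of 28 mice. All animals were wild-type C57BL/6N males, housed singly and 16 weeks old at the end. Both groups ate diets without cysteine (0%), the other sulfur amino acid, so that the body had to make it from methionine. The labels give 0.86% methionine for the control diet and 0.12% for the restricted diet. Either diet was fed for 7 days at 22 °C and followed by 24 h at 4 °C (cold exposure, CE). Mice were killed in the morning, and polyA RNA of the whole fat pad was sequenced in paired reads. No mouse kept at 22 °C entered the comparison, which asks what the restriction changed in fat that was already exposed to cold. Of 56884 genes in the table, the 25506 with at least 10 counts over the 14 libraries were tested.

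White fat stores triglyceride and releases fatty acids through lipolysis when noradrenaline reaches it in the cold. It can also make fatty acids from glucose: citrate leaves the mitochondrion, ATP citrate lyase splits it into acetyl-CoA, and acetyl-CoA carboxylase and fatty acid synthase build the chain. The transcription factors SREBP-1c and ChREBP drive the genes of this route in the fed state, and SREBP-2 those of cholesterol synthesis. Methionine, an essential amino acid, is the source of S-adenosylmethionine, the methyl donor of the cell. eWAT turns brown to a lesser degree than iWAT in the cold. In RNA of a whole fat pad, fewer cells of a type and less RNA per cell cannot be told apart.

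Libraries held 22625093 to 33372110 counts, with medians of 25732661 in Ctrl_CE and 29059485 in MetR_CE. Transcripts of other tissues were found in several of them. The first principal component over the 500 most variable genes (81.6% of their variance) was led by genes of ciliated and duct epithelium such as Foxj1 and Mmp7. Summed over 12 such genes the level ran from 0.134 to 793.7 CPM (counts scaled to a common library size by TMM) in Ctrl_CE and from 0.302 to 642 in MetR_CE, and 4 Ctrl_CE and 2 MetR_CE libraries lay above 50 CPM. The second component (9.58%) was led by liver transcripts such as Fgb and Ttr. The 15 such genes, chosen like the epithelial ones after the data were seen, summed to between 6.33 and 304.5 CPM in Ctrl_CE and between 9.89 and 271.1 in MetR_CE, with 2 libraries of each group above 100 CPM. The epithelial sums had medians of 234.1 CPM in Ctrl_CE and 19.9 in MetR_CE, and all 12 genes had a negative log2 fold change. The liver sums had medians of 12.9 and 52.4. No gene of either list passed the test between the groups, which the wide spread within each group limits. White adipocyte markers were abundant in every library, with a sum of at least 25202 CPM, and 1 of 10 fell (Slc2a4).

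Methionine restriction during cold changed 1139 genes in eWAT. Higher levels in MetR_CE were found for 588 genes (2.31% of those tested) and lower levels for 551 (2.16%), with an adjusted p under 0.05 in edgeR's quasi-likelihood test and a change of at least 1.5-fold (DEGs, differentially expressed genes). Over all genes tested the median change was -0.01 on the log2 scale. When DEGs were limited to the 950 whose mean reached 1 CPM in either group, the ranges of the 7 and 7 libraries did not overlap for 383, of which 250 were higher and 133 lower in MetR_CE. Non-overlapping ranges were found for 3.94% of all genes tested. Changes of at least 4-fold were more often downward, with 63 genes lower and 30 higher at this level of expression. The 12 largest falls with separate ranges included Acly, Mvd and Insig1, and the 12 largest rises Nnat, Zim1, Peg3 and Thbs2.

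**Figure D1:**
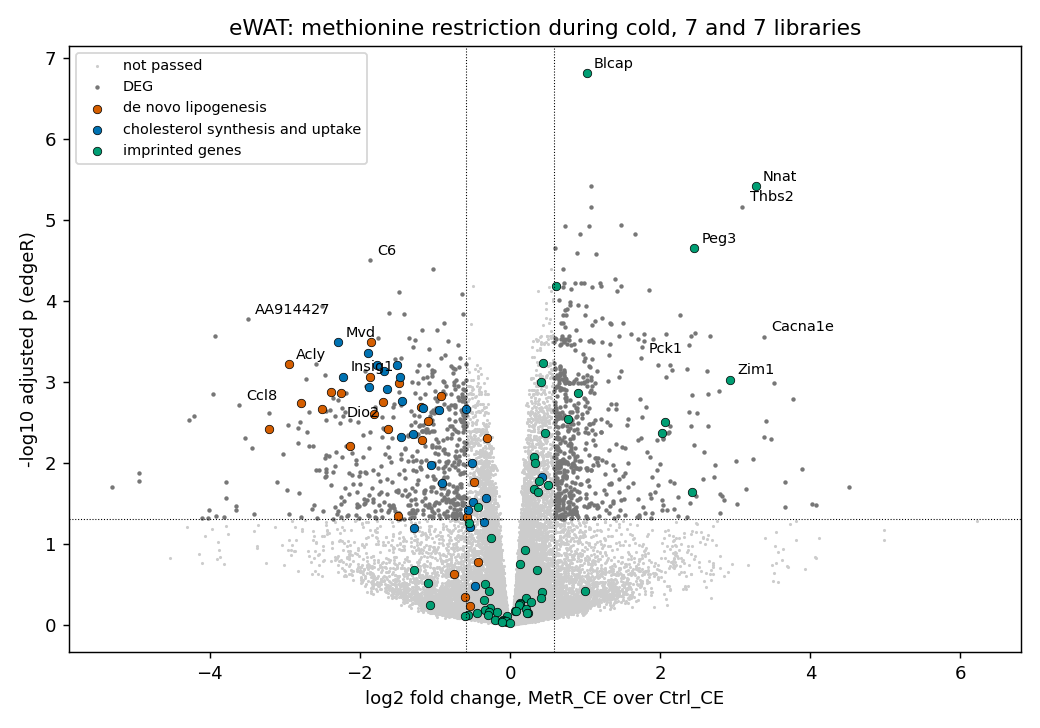
Each point is 1 of the 25506 genes tested in eWAT, with the log2 fold change of MetR_CE over Ctrl_CE on the x axis and -log10 of the adjusted p on the y axis; dotted lines mark the thresholds. Genes of lipogenesis (orange) and cholesterol synthesis (blue) lie on the left, and Nnat, Blcap, Peg3 and Zim1 (green, imprinted) on the right.

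Genes of de novo lipogenesis were lower in MetR_CE. Of 26 genes of this route, 18 fell and 0 rose, all 26 had a negative log2 fold change, and their median was -1.49. Acly, ATP citrate lyase, ran from 2002 to 14009 CPM in Ctrl_CE (median 6421) and from 421 to 1407 in MetR_CE (median 813). Every MetR_CE library thus lay below every Ctrl_CE library, a 7.69-fold difference (log2 fold change -2.94 ± 0.42, adjusted p = 0.00061). Acss2, which makes acetyl-CoA from acetate, ran from 152 to 2071 CPM in Ctrl_CE (median 901) and from 66.3 to 290.8 in MetR_CE (median 144), and the groups overlapped through 1 control library (log2 fold change -2.78 ± 0.48, adjusted p = 0.00182). The carboxylases followed, Acaca with -1.63 ± 0.32, adjusted p = 0.00382 and Acacb with -1.18 ± 0.24, adjusted p = 0.00525. Fasn, fatty acid synthase, ran from 10547 to 55230 CPM in Ctrl_CE (median 30889) and from 2548 to 13517 in MetR_CE (median 6225). Its ranges overlapped, and the difference was 4.39-fold (log2 fold change -2.13 ± 0.45, adjusted p = 0.00616).

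The steps around fatty acid synthase moved the same way. Elovl6, which lengthens palmitate, changed by -2.50 ± 0.44, adjusted p = 0.00216, and the desaturase Scd2 by -2.38 ± 0.39, adjusted p = 0.00133. Scd1, the most abundant desaturase of fat, ran from 8622 to 97231 CPM in Ctrl_CE (median 80249) and from 32950 to 72411 in MetR_CE (median 43637) and did not pass (log2 fold change -0.53 ± 0.49, adjusted p = 0.589). The control library at 8622 CPM, replicate 4, was the lowest of its group for Acly, Fasn, Elovl6 and Insig1 as well, and without it Scd1 had a log2 fold change of -0.73. Enzymes that supply NADPH or its pentose route fell with Me1 (-2.25 ± 0.37, adjusted p = 0.00137), Tkt (-1.69 ± 0.29, adjusted p = 0.00179) and Pgd (-1.18 ± 0.21, adjusted p = 0.00204), whereas G6pdx, which opens the pentose route, had log2 fold change -0.04 ± 0.16, adjusted p = 0.919. Slc25a1, the carrier that exports citrate, fell (-1.82 ± 0.33, adjusted p = 0.00247). So did Thrsp, a lipogenic cofactor that ran from 1607 to 5220 CPM in Ctrl_CE (median 3004) and from 507 to 1272 in MetR_CE (median 734) without overlap (log2 fold change -1.87 ± 0.29, adjusted p = 0.000879). Of the transcription factors, Srebf1 ran from 968 to 1712 CPM in Ctrl_CE (median 1236) and from 514 to 903 in MetR_CE (median 675) and was separate too, though the change was 1.89-fold (log2 fold change -0.92 ± 0.15, adjusted p = 0.00148). Mlxipl, which encodes ChREBP, had log2 fold change -0.57 ± 0.18, adjusted p = 0.0465, just short of the fold threshold.

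**Figure D2:**
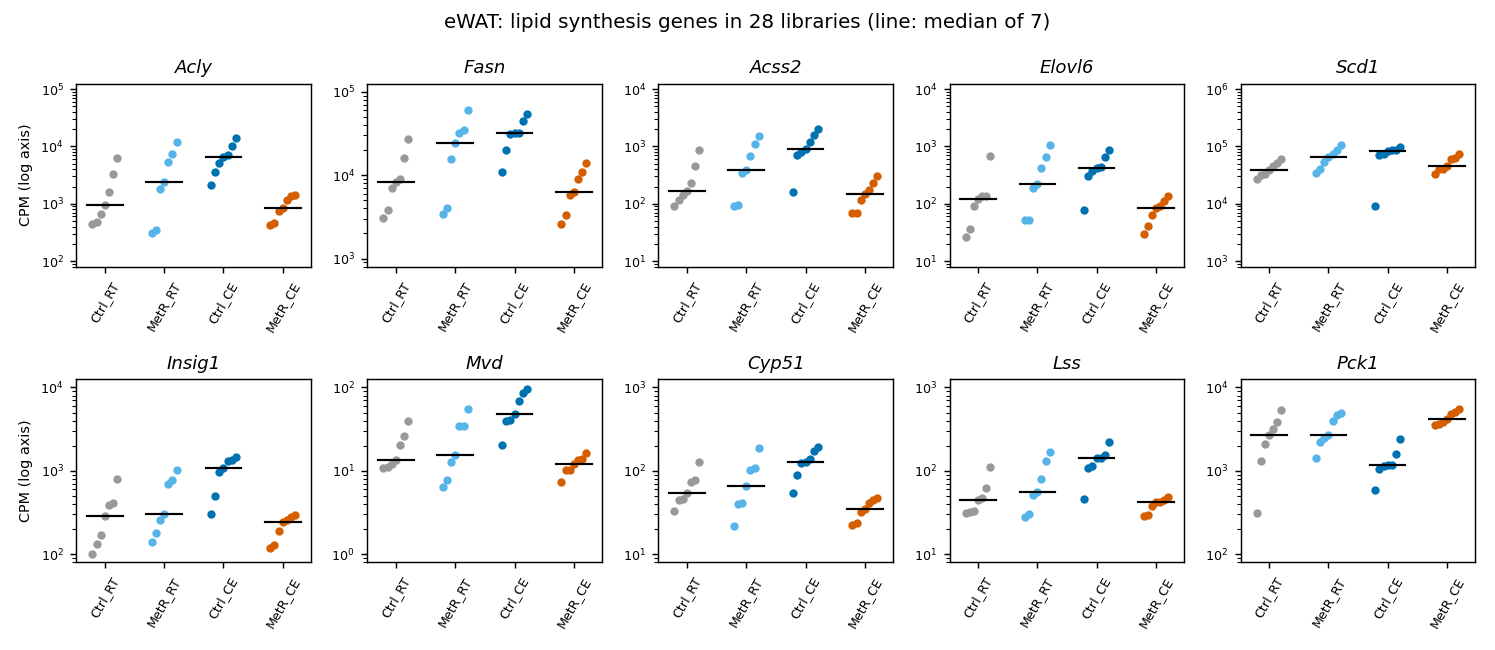
Levels of 10 lipid genes in each of the 28 eWAT libraries (CPM scaled over all 28, log axis), with 1 point per library and a line at each group's median. Compared with Ctrl_CE, MetR_CE (orange) has lower medians for the synthesis genes and a higher median for Pck1. Libraries of mice not exposed to cold overlap with MetR_CE, and for the synthesis genes other than Fasn and Acss2 some lie below it. The Ctrl_CE library that lies apart for Scd1 is at about the level of MetR_CE for Elovl6 and Acss2.

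Genes of sterol synthesis fell as well. Of 26 genes of cholesterol synthesis and uptake, 17 fell and 0 rose, with a median of -1.22. Insig1, an ER protein that holds back SREBP and is itself an SREBP target, ran from 295.8 to 1472 CPM in Ctrl_CE (median 1053) and upward from 116 in MetR_CE (median 239). The highest MetR_CE library lay just below the lowest control (log2 fold change -2.22 ± 0.34, adjusted p = 0.000868). Mvd, which makes isopentenyl diphosphate from mevalonate diphosphate, ran from 19.8 to 97.4 CPM in Ctrl_CE (median 46.7) and from 7.15 to 15.6 in MetR_CE (median 11.9), again without overlap (log2 fold change -2.29 ± 0.30, adjusted p = 0.000324). Further down the route the farnesyl diphosphate synthase Fdps (-1.88 ± 0.30, adjusted p = 0.00116), squalene epoxidase Sqle (-1.47 ± 0.22, adjusted p = 0.000868), lanosterol synthase Lss (-1.78 ± 0.26, adjusted p = 0.000611) and the demethylase Cyp51 (-1.90 ± 0.26, adjusted p = 0.000446) fell. Hmgcs1, an early enzyme of the route, did not pass (log2 fold change -0.54 ± 0.18, adjusted p = 0.0628). Srebf2, the factor itself, ran from 72.3 to 94.4 CPM in Ctrl_CE (median 88.4) and from 55.4 to 79.1 in MetR_CE (median 66.9) and did not reach the fold threshold (log2 fold change -0.31 ± 0.09, adjusted p = 0.0273).

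Promoters of the cholesterol genes shared a short motif. RefSeq promoters (GRCm38.p6, from 250 bases before to 50 after the start) were given for 14 of the 17 that fell, and 10 of the 14 (71.4%) held CCAATNA on either strand, the CCAAT box bound by NF-Y. It was found in 18.4% of the 14723 promoters of all genes tested that had one, in 27.3% of those of lower DEGs and 14.3% of those of higher DEGs. In the whole cholesterol list, with the members that did not fall, 12 of 18 promoters held it (66.7%), those of Hmgcs1 and Mvk among them. In lipogenesis genes that fell, 2 of 16 promoters held it (12.5%). Lists without a single call held it as often, ER chaperones in 13 of 18 promoters (72.2%) and antigen presentation in 8 of 11 (72.7%), and cell proliferation held it in 10 of 19 (52.6%). The sterol response element TCACNCCAC, searched in the same way, was in 0 of the 14 and in 1.5% of all, and the E-box CACGTG in 4 of the 14 (28.6%) and in 10.3% of all. A match is a description of these letters and was not tested as a site. The stretches below are those of the 6 genes with the largest fall among the 10, each read 5′ to 3′ on the gene's strand and ending at or before its start, with the CCAAT box or its reverse complement in capitals.
Mvd (chr8:122443423-122443479, minus strand): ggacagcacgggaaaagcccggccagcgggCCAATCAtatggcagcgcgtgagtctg
Lss (chr10:76531511-76531577, plus strand): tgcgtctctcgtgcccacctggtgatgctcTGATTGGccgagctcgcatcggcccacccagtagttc
Nsdhl (chrX:72918469-72918520, plus strand): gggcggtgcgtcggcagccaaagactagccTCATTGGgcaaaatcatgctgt
Dhcr7 (chr7:143830099-143830165, plus strand): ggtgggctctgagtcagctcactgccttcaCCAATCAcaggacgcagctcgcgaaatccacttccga
Idi1 (chr13:8885529-8885595, plus strand): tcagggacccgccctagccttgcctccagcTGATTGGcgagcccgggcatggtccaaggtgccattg
Hsd17b7 (chr1:169969206-169969249, minus strand): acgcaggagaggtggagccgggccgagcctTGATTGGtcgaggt

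Of these 6, Mvd fell most (-2.29) and Hsd17b7 least (-1.15 ± 0.20, adjusted p = 0.00209), with Lss at -1.78, Nsdhl at -1.64, Dhcr7 at -1.44 and Idi1 at -1.29 between them. The motif began 14 to 85 bases before the start.

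The counts for lipogenesis and cholesterol genes changed when libraries that carried transcripts of other tissues were left out. Without the 4 libraries above 100 CPM of hepatocyte genes (replicates 5 and 6 of both groups), 5 against 5 libraries called 329 DEGs, and 5 lipogenesis and 8 cholesterol genes fell. Without the 6 libraries above 50 CPM of epithelial genes, which leaves 3 Ctrl_CE against 5 MetR_CE, 20 and 23 fell. This choice also left out Ctrl_CE replicate 4, the lowest control library for Acly, Fasn, Elovl6 and Insig1. With both marker sums as covariates 19 and 19 fell. No member of either list rose in any of these fits. Leaving libraries out also makes the groups smaller. The part of these transcripts, or of group size, in the result was not tested.

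Genes of mitochondrial pyruvate use fell too. Of 24 genes of pyruvate metabolism and the TCA cycle, 8 fell and 1 rose (median -0.47). Both subunits of the mitochondrial pyruvate carrier, Mpc1 (-1.12 ± 0.22, adjusted p = 0.00419) and Mpc2 (-1.04 ± 0.20, adjusted p = 0.003), fell. The pyruvate dehydrogenase genes Pdha1, Pdhb and Dlat had -0.72, -1.28 and -1.01, and Dlat ran from 254.9 to 541 CPM in Ctrl_CE (median 382) and from 147 to 234 in MetR_CE (median 190.4) without overlap. Pyruvate carboxylase Pcx (-1.03 ± 0.27, adjusted p = 0.0199), citrate synthase Cs (-0.79 ± 0.16, adjusted p = 0.00493) and lactate dehydrogenase Ldha (-1.001 ± 0.17, adjusted p = 0.00157) were the others. The gene that rose was Pck2, the mitochondrial PEP carboxykinase (0.66 ± 0.11, adjusted p = 0.00116). Without the libraries high in hepatocyte transcripts, 1 of the 24 fell.

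Pck1 went the opposite way. It encodes the cytosolic PEP carboxykinase, which in fat makes glycerol 3-phosphate from pyruvate to re-esterify fatty acids. It ran from 593 to 2308 CPM in Ctrl_CE (median 1131) and from 3380 to 5357 in MetR_CE (median 4054), with no overlap and a 3.35-fold rise (log2 fold change 1.74 ± 0.24, adjusted p = 0.000514). Of 21 genes of triglyceride synthesis and storage, 3 rose and 5 fell (median -0.23). The glycerol channel Aqp7 ran from 182 to 248.2 CPM in Ctrl_CE (median 189.9) and from 270.7 to 483 in MetR_CE (median 356), also apart (log2 fold change 0.85 ± 0.11, adjusted p = 0.000342), and the droplet protein Plin4 rose (0.79 ± 0.12, adjusted p = 0.00103). Falling members were Agpat2 (-1.46 ± 0.23, adjusted p = 0.00101), Gpd1, which makes glycerol 3-phosphate from glucose (-1.22 ± 0.24, adjusted p = 0.00355), Mogat1 (-0.83 ± 0.15, adjusted p = 0.00207), Plin2 (-0.89 ± 0.19, adjusted p = 0.0069) and Cidea (-1.39 ± 0.35, adjusted p = 0.0156). All 3 rises held without the libraries high in hepatocyte transcripts, and 0 of the 5 falls.

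Lipolysis genes moved little. Of 18, 2 rose and 0 fell (median 0.32): Prkar2b, the regulatory subunit of protein kinase A in fat (0.72 ± 0.09, adjusted p = 0.000318), and Hcar1, the lactate receptor that restrains lipolysis (0.74 ± 0.13, adjusted p = 0.002). The lipases Lipe and Pnpla2 had 0.30 and 0.18 and did not pass. Among 14 genes around lipoprotein lipase, 3 fell: Angptl8, an insulin-responsive inhibitor of the lipase (-2.47 ± 0.61, adjusted p = 0.0148), the fatty acid carrier Fabp5 (-1.27 ± 0.25, adjusted p = 0.00429) and Apoc1 (-0.87 ± 0.14, adjusted p = 0.0014). Lpl itself ran from 7076 to 14460 CPM in Ctrl_CE (median 11863) and from 8286 to 13207 in MetR_CE (median 10635), and the groups overlapped over nearly the whole range (log2 fold change -0.01 ± 0.21, adjusted p = 0.977). In insulin signalling, 1 of 22 genes rose and 1 fell, 4.55% each way beside 2.31% and 2.16% of all genes tested. The receptor substrate Irs2 rose (0.86 ± 0.22, adjusted p = 0.021). The glucose transporter Slc2a4 fell (-0.64 ± 0.18, adjusted p = 0.0335), and its call was lost when any 1 of 9 libraries was left out. With all 28 eWAT libraries in the fit Irs2, Slc2a4, Angptl8 and Hcar1 lost their calls. Without the libraries high in hepatocyte transcripts Irs2, Slc2a4, Angptl8 and Fabp5 did, and without those high in epithelial ones Slc2a4 and Hcar1. Fatty acid oxidation had 2 rises and 1 fall among 24 genes, with Acot4 (0.80 ± 0.22, adjusted p = 0.0252) among the rises and Ehhadh (-0.60 ± 0.10, adjusted p = 0.00125) the fall, and each of these calls was lost when any 1 of 3 libraries was left out. Ehhadh then missed only the fold threshold, with an adjusted p (edgeR) of at most 0.00396.

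**Figure D3:**
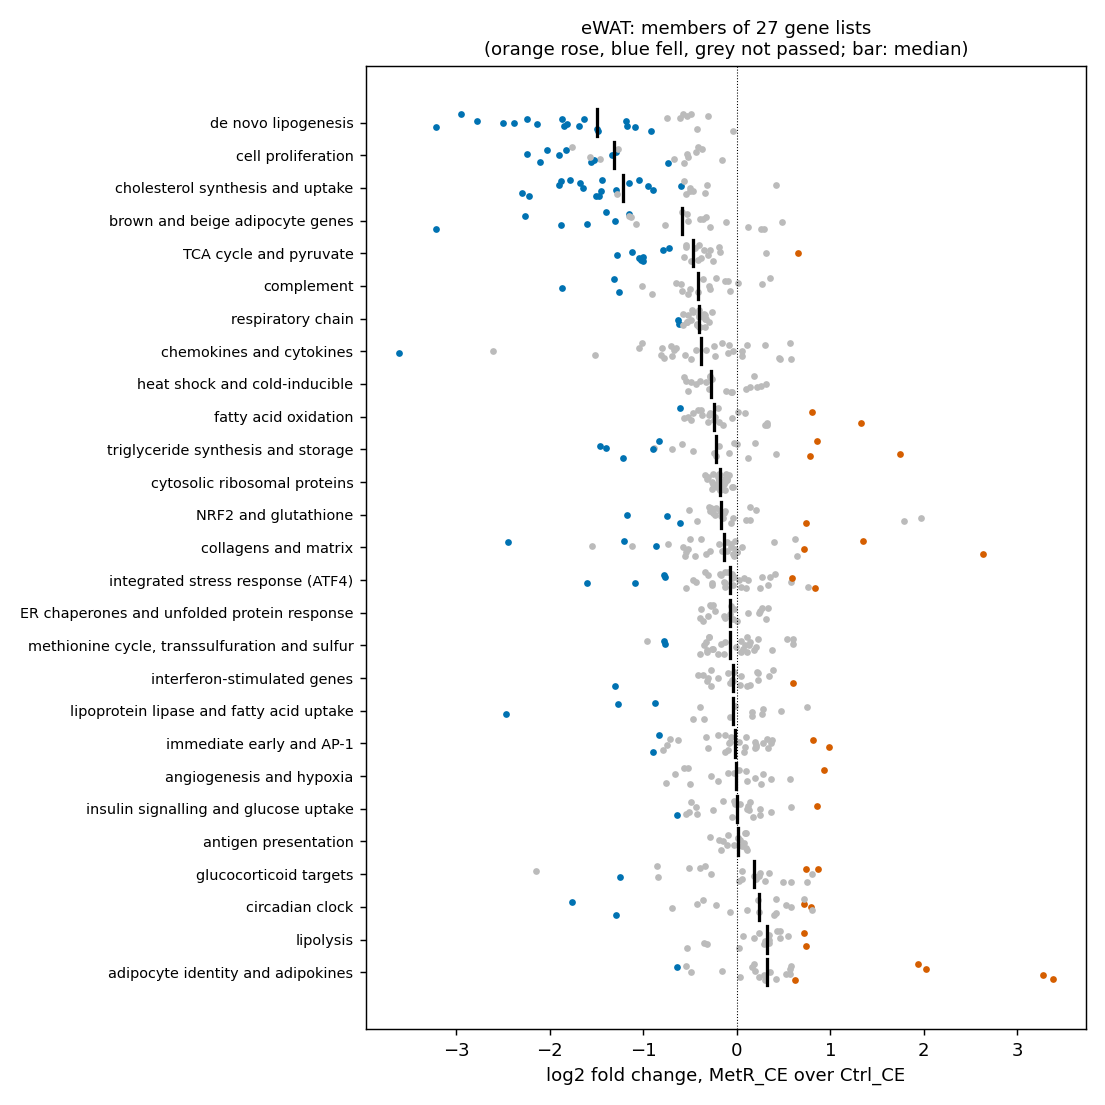
Log2 fold changes of MetR_CE over Ctrl_CE in eWAT (x axis) for the members of 27 gene lists (rows), 1 point per gene, coloured by whether it rose (orange), fell (blue) or did not pass (grey), with a bar at each list's median. The lists of lipogenesis, cell proliferation and cholesterol synthesis have the lowest medians (-1.49, -1.31 and -1.22).

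Thermogenic genes were scarce, and several fell. Of 23 genes of brown and beige adipocytes, 7 fell and 0 rose (median -0.58). Dio2, the deiodinase that activates thyroid hormone, ran from 2.71 to 7.15 CPM in Ctrl_CE (median 5.35) and from 0.323 to 2.65 in MetR_CE (median 0.774). The ranges lay just apart (log2 fold change -2.27 ± 0.43, adjusted p = 0.0032). Elovl3, an elongase of cold-exposed brown fat, ran from 0.527 to 5.84 CPM in Ctrl_CE (median 2.37) and from 0.0267 to 0.583 in MetR_CE (median 0.176) (log2 fold change -3.21 ± 0.63, adjusted p = 0.00379). Cidea, Cox8b, Cox7a1, Otop1 and Fgf21 were the other members that fell, by 1.15 to 1.88 on the log2 scale, and the call of Fgf21 was lost when any 1 of 10 libraries was left out and that of Cox7a1 when any 1 of 2 was. Ucp1, the uncoupling protein that defines thermogenic fat, was near the floor in both groups, from 0.527 to 4.93 CPM in Ctrl_CE (median 1.37) and from 0 to 5.67 in MetR_CE (median 1.1) (log2 fold change 0.26 ± 0.78, adjusted p = 0.889). Of 6 markers of brown adipocytes 4 fell, all of them among the 7. Without the libraries high in hepatocyte transcripts, 0 of the 23 fell and 1 rose.

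All 25 genes tested of the respiratory chain had a negative log2 fold change, between -0.63 and -0.26 (median -0.41), and 2 passed. These were cytochrome c, Cycs, which ran from 61.7 to 98.2 CPM in Ctrl_CE (median 71.6) and from 41 to 55.6 in MetR_CE (median 49.5) without overlap (log2 fold change -0.63 ± 0.11, adjusted p = 0.00256), and the cytochrome oxidase subunit Cox5a (log2 fold change -0.62 ± 0.12, adjusted p = 0.00309). The call of Cycs was lost when any 1 of 2 libraries was left out, and that of Cox5a when any 1 of 3 was. Both then missed only the fold threshold, with adjusted p (edgeR) of at most 0.00732 and 0.00882. Without the libraries high in hepatocyte transcripts 0 of the 25 passed, and without those high in epithelial ones 8 fell. None of 29 cytosolic ribosomal protein genes passed, and all 29 had a negative log2 fold change as well, between -0.33 and -0.04 (median -0.18).

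Several of the strongest rises were in imprinted genes, which are read only or mainly from 1 parental copy in at least some tissues. Which copy was read in this fat was not examined. Nnat encodes neuronatin, a small membrane protein of the endoplasmic reticulum, and ran from 133 to 317 CPM in Ctrl_CE (median 257.8) and from 1493 to 3770 in MetR_CE (median 2138). The ranges lay far apart, and the difference was 9.68-fold (log2 fold change 3.27 ± 0.23, adjusted p = 3.8e-06). Blcap, whose gene encloses Nnat on the opposite strand, ran from 89.4 to 101 CPM in Ctrl_CE (median 94.7) and from 166 to 206 in MetR_CE (median 194) and had the lowest adjusted p of all genes (log2 fold change 1.02 ± 0.05, adjusted p = 1.54e-07). The labels name a library kit that does not mark strand, so that reads of the 2 genes where they overlap cannot be told apart. Peg3, a zinc-finger gene expressed from the paternal copy, ran from 19.1 to 66.3 CPM in Ctrl_CE (median 44) and from 169 to 317 in MetR_CE (median 227), a 5.49-fold rise (log2 fold change 2.46 ± 0.22, adjusted p = 2.24e-05). Its neighbour Zim1, expressed from the maternal copy, ran from 0.401 to 2.85 CPM in Ctrl_CE (median 1.47) and from 5.46 to 15.2 in MetR_CE (median 10.8) and did not overlap either (log2 fold change 2.93 ± 0.45, adjusted p = 0.000943). Usp29, the other neighbour of Peg3, rose at a level below 0.5 CPM (log2 fold change 2.42 ± 0.64, adjusted p = 0.0231).

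Another imprinted cluster held Mest, a hydrolase gene that marks expanding fat, from 19.8 to 327 CPM in Ctrl_CE (median 185) and from 539 to 1124 in MetR_CE (median 748) (log2 fold change 2.02 ± 0.40, adjusted p = 0.00425), and the transcription factor gene Klf14, from 0.703 to 6.48 CPM in Ctrl_CE (median 3.94) and from 7.35 to 25 in MetR_CE (median 14.7) (log2 fold change 2.07 ± 0.39, adjusted p = 0.00315). In both the ranges lay apart. Among 66 genes listed as imprinted after the values had been seen, 59 were tested, 10 rose and 0 fell, with a median of 0.14. The smaller rises were in Plagl1 (0.78 ± 0.14, adjusted p = 0.00288), the cell-cycle inhibitor Cdkn1c (0.91 ± 0.15, adjusted p = 0.00136) and the noncoding RNA Peg13 (0.61 ± 0.06, adjusted p = 6.44e-05). Leaving out any 1 of 2 libraries lost the call of Peg13, and leaving out 1 lost that of Usp29. Peg13 then missed only the fold threshold, with an adjusted p (edgeR) of at most 0.000316. Other imprinted genes did not pass, among them Igf2 (log2 fold change 0.25 ± 0.33, adjusted p = 0.719), H19 (log2 fold change -1.09 ± 0.61, adjusted p = 0.307) and Dlk1 (log2 fold change -0.20 ± 0.58, adjusted p = 0.883). The rises numbered 6 without the libraries high in hepatocyte transcripts and 10 without those high in epithelial ones.

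**Figure D4:**
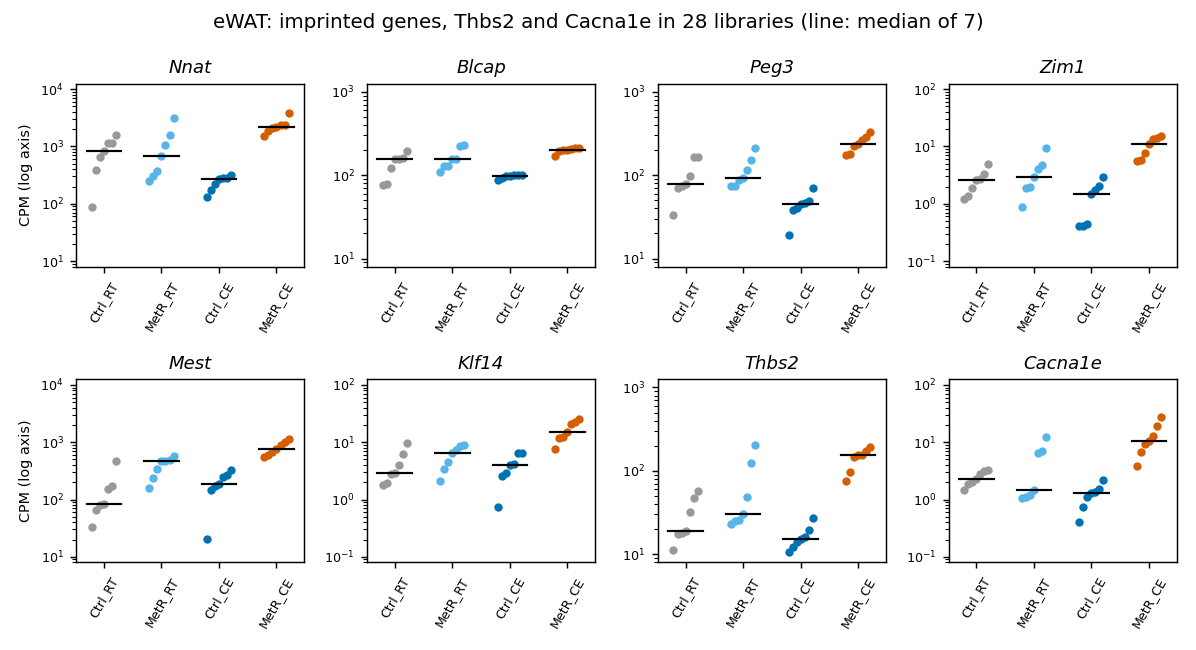
Levels of 6 imprinted genes, Thbs2 and Cacna1e in each of the 28 eWAT libraries (CPM scaled over all 28, log axis), with 1 point per library and a line at each group's median. For all 8 genes the 7 MetR_CE libraries (orange) lie above the 7 Ctrl_CE libraries (dark blue), with libraries at 22 °C in between or spread over both.

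Adipocyte identity and adipokine genes rose more often than they fell, with 5 higher and 1 lower of 22 (median 0.33); Nnat and Mest are 2 of the 5. Sfrp5, a secreted Wnt antagonist, ran from 3.09 to 25.5 CPM in Ctrl_CE (median 6.15) and from 8.74 to 229 in MetR_CE (median 65.1) and overlapped (log2 fold change 3.38 ± 0.68, adjusted p = 0.00474). Bmp3, a ligand of the BMP family, ran from 3.62 to 36.3 CPM in Ctrl_CE (median 5.89) and from 21.8 to 76.8 in MetR_CE (median 43.5) (log2 fold change 1.93 ± 0.51, adjusted p = 0.0227). Acvr1c, the activin receptor ALK7 of adipocytes, differed by less but without overlap, from 118 to 143 CPM in Ctrl_CE (median 132) and from 181 to 230.5 in MetR_CE (median 197) (log2 fold change 0.62 ± 0.06, adjusted p = 6.6e-05). Adiponectin, Adipoq, had log2 fold change 0.57 ± 0.17, adjusted p = 0.0381 and leptin, Lep, log2 fold change 0.53 ± 0.33, adjusted p = 0.375, and neither passed both thresholds. When the libraries high in hepatocyte transcripts were left out, 2 of the 22 rose and 0 fell, and Sfrp5, Bmp3 and Mest lost their calls. Without those high in epithelial transcripts 4 rose and 1 fell, and Bmp3 lost its call, as it did without Ctrl_CE replicate 7.

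Among matrix genes, Thbs2, which encodes the secreted glycoprotein thrombospondin 2, stood out. It ran from 10.3 to 26.4 CPM in Ctrl_CE (median 15.4) and from 73 to 189 in MetR_CE (median 148), an 8.55-fold rise with wide separation (log2 fold change 3.10 ± 0.24, adjusted p = 6.81e-06). Thbs1, its relative, ran from 22.4 to 186 CPM in Ctrl_CE (median 45.4) and from 110.0 to 642 in MetR_CE (median 341), and Ctrl_CE replicate 3 overlapped with MetR_CE (log2 fold change 2.64 ± 0.51, adjusted p = 0.0035). Of 34 genes listed as collagens and matrix, 3 rose and 3 fell. The protease inhibitor Timp3 rose with Thbs1 (0.72), and Timp1 (-2.45 ± 0.54, adjusted p = 0.00807) and the fibrillar collagens Col1a1 (-0.86 ± 0.20, adjusted p = 0.011) and Col3a1 (-1.20 ± 0.23, adjusted p = 0.00341) fell. Markers of adipose progenitors and fibroblasts summed to 2132 to 4309 CPM in Ctrl_CE and 1205 to 2243 in MetR_CE, and the 2 of 12 that fell were the same collagens. Whether fewer fibroblasts had a part in it was not tested.

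Immune genes changed singly. Ccl8, a monocyte chemokine, had the largest fall among the genes named by rule, from 1.79 to 23.7 CPM in Ctrl_CE (median 3.96) and from 0.249 to 1.52 in MetR_CE (median 0.509) (log2 fold change -3.61 ± 0.63, adjusted p = 0.00194), and was 1 of 30 chemokine and cytokine genes to pass. C6, a component of the membrane attack complex, ran from 43.5 to 80.5 CPM in Ctrl_CE (median 66.2) and from 9.41 to 23 in MetR_CE (median 18.7) without overlap (log2 fold change -1.87 ± 0.17, adjusted p = 3.11e-05). C3 (-1.31 ± 0.36, adjusted p = 0.0285) and Masp1 (-1.26 ± 0.35, adjusted p = 0.0281) were the other complement genes to fall, of 21, and 1 fell without the libraries high in hepatocyte transcripts. The call of C3 was lost when any 1 of 3 libraries was left out, and that of Masp1 when any 1 of 5 was. Antigen presentation had 0 calls among 16 genes, and interferon-stimulated genes 1 in each direction among 23. Macrophage markers summed to 523 to 1163 CPM in Ctrl_CE and 444 to 771 in MetR_CE, and 1 of 15 fell, Mrc1 (-0.74 ± 0.23, adjusted p = 0.0488), whose call was lost when any 1 of 10 libraries was left out. Without the libraries high in epithelial transcripts 3 of the 15 fell, and without those high in hepatocyte ones 0. Of 11 neutrophil and mast cell markers 3 fell, Mmp8, S100a8 and S100a9. Ctrl_CE replicate 4 held Mmp8 at 4.53 CPM, S100a8 at 14.1 and S100a9 at 22.8. Without it all 3 calls were lost, as each was without any 1 of 7 other libraries, and 0 of the 11 fell without the libraries high in epithelial or in hepatocyte transcripts. Markers of B cells, of T and NK cells, and of smooth muscle had 0 calls, and those of endothelium 1, a rise of Cldn5 (1.02 ± 0.15, adjusted p = 0.000823).

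Cell division genes were lower in MetR_CE. Of 22, all had a negative log2 fold change and 10 fell (median -1.31). Mki67, which marks cycling cells, ran from 2.7 to 27.7 CPM in Ctrl_CE (median 4.32) and from 0.872 to 2.27 in MetR_CE (median 1.64). The ranges did not overlap (log2 fold change -2.24 ± 0.50, adjusted p = 0.00859). Top2a (-2.10 ± 0.51, adjusted p = 0.0141), Ccnb2 (-1.90 ± 0.53, adjusted p = 0.0287) and Cdk1 (-1.55 ± 0.45, adjusted p = 0.0336) fell as well. Ctrl_CE replicate 3 was the highest library for each of these 4 genes, with 27.7 CPM of Mki67. Among the other large falls, Iqgap3 (-2.68 ± 0.56, adjusted p = 0.00616), a scaffold of dividing cells, and Ankle1 (-2.41 ± 0.53, adjusted p = 0.00821), an endonuclease, were highest in the same library. Without it Cdk1 lost its call, as it did without 7 other single libraries, and Mki67, Top2a, Ccnb2, Iqgap3 and Ankle1 kept theirs. Ccnb2 lost its call when any 1 of 4 MetR_CE libraries was left out. With all 28 eWAT libraries in the fit 3 of the 22 fell, and without the libraries high in hepatocyte transcripts 0. Red blood cell genes fell in 5 of 6 cases, among them Slc4a1 (-2.80 ± 0.53, adjusted p = 0.00317) and Hbb-bs, from 102 to 285.5 CPM in Ctrl_CE (median 139) and from 58.6 to 123 in MetR_CE (median 88.8) (log2 fold change -0.87 ± 0.22, adjusted p = 0.0184). In the fit without the libraries high in hepatocyte transcripts 2 of the 6 fell, and neither Slc4a1 nor Hbb-bs passed. Without those high in epithelial transcripts 3 fell, and Hbb-bs did not pass. Whether the tissues held different amounts of blood was not tested.

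Amino acid and stress responses were mixed. Of 36 genes of the integrated stress response, which ATF4 drives when amino acids run short, 2 rose and 4 fell (median -0.07). Trib3 rose (0.83 ± 0.18, adjusted p = 0.00747), and so did Sesn2 (0.59 ± 0.18, adjusted p = 0.0433), whose call was lost when any 1 of 10 libraries was left out. Psph, of serine synthesis, ran from 18.8 to 47.9 CPM in Ctrl_CE (median 30.6) and from 12.4 to 18.4 in MetR_CE (median 15.8) without overlap (log2 fold change -1.09 ± 0.16, adjusted p = 0.000611), and Cth, which makes cysteine from cystathionine, fell (-0.78 ± 0.13, adjusted p = 0.00143), as did Fgf21 and Aldh1l2, whose call, like that of Fgf21, was lost when any 1 of 10 libraries was left out. In the methionine and sulfur list, Cth and the glutathione synthetase Gss (-0.77 ± 0.15, adjusted p = 0.00349) were the 2 of 32 to fall, and 0 rose. Mat2a, which makes S-adenosylmethionine outside the liver, ran from 220.1 to 293.1 CPM in Ctrl_CE (median 270.4) and from 353 to 440.4 in MetR_CE (median 375). The ranges lay apart, but the fold stayed under the threshold (log2 fold change 0.54 ± 0.08, adjusted p = 0.000611). The NRF2 and glutathione list had 1 rise and 3 falls of 25, glucocorticoid targets 2 and 1 of 23 (13 and 2 without the libraries high in epithelial transcripts, 0 and 1 without those high in hepatocyte ones), immediate early genes 2 and 2 of 30, and hypoxia and angiogenesis 1 and 0 of 18. Heat shock and cold-inducible genes (20) and ER chaperones (21) had 0 calls. Rbm3, a cold-inducible RNA-binding protein gene, ran from 123 to 161 CPM in Ctrl_CE (median 157) and from 102 to 121 in MetR_CE (median 109.6), lower in every MetR_CE library but under the fold threshold (log2 fold change -0.43 ± 0.07, adjusted p = 0.00113).

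Clock genes shifted in 4 of 19 cases. Arntl, which encodes BMAL1, ran from 9.36 to 18.6 CPM in Ctrl_CE (median 15.7) and from 4.57 to 7.82 in MetR_CE (median 5.47) (log2 fold change -1.29 ± 0.17, adjusted p = 0.000371). Nfil3, a repressor of clock output, ran from 9.34 to 25.2 CPM in Ctrl_CE (median 20.1) and from 3.4 to 6.29 in MetR_CE (median 5.31) (log2 fold change -1.76 ± 0.23, adjusted p = 0.000289). Neither overlapped between groups. In the other direction Nr1d2, the REV-ERB beta gene, rose (0.72 ± 0.11, adjusted p = 0.000965), and so did Dbp, an output activator (0.80 ± 0.21, adjusted p = 0.0198). Without the 6 libraries high in epithelial transcripts 6 clock genes rose and 2 fell, and with both marker sums as covariates 7 and 2. With all 28 eWAT libraries in the fit 1 rose and 2 fell, and without the libraries high in hepatocyte transcripts 2 and 2. Dbp lost its call in both of these fits, in the fit of 24 eWAT libraries and when the fold threshold itself was tested. Tissue was taken at 1 time of day, so that a level and a phase cannot be told apart.

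The rule for named genes, the 12 largest changes in each direction among DEGs with separate ranges, gave several that belong to no list. Cacna1e, a subunit of R-type calcium channels, ran from 0.403 to 2.14 CPM in Ctrl_CE (median 1.28) and from 3.72 to 26.4 in MetR_CE (median 10.4) (log2 fold change 3.38 ± 0.43, adjusted p = 0.000278). Vnn1, the pantetheinase vanin 1, ran from 1.16 to 9.49 CPM in Ctrl_CE (median 2.45) and from 10.8 to 29.6 in MetR_CE (median 19.2) (log2 fold change 2.43 ± 0.41, adjusted p = 0.00147). The others that rose were low in both groups: Prss51 (3.52), Gabrr2 (3.41), Gm45188 (2.78), Ranbp3l (2.63), the small nucleolar RNA Gm24505 (2.47) and Sbk2 (2.41), each with a Ctrl_CE median under 0.5 CPM. Gm45188 is annotated antisense to Uvrag, and its reads cannot be told from those of Uvrag. Of the genes that fell, the noncoding transcripts AA914427, from 9.56 to 52.8 CPM in Ctrl_CE (median 23.1) and from 0.667 to 4 in MetR_CE (median 2.11), and Gm34759, from 2.6 to 5.36 CPM in Ctrl_CE (median 3.26) and from 0.293 to 1.17 in MetR_CE (median 0.582), belong to no list either. Lipg, endothelial lipase, ran from 4.51 to 18.1 CPM in Ctrl_CE (median 7.44) and from 0.962 to 3.53 in MetR_CE (median 1.24) (log2 fold change -2.47 ± 0.37, adjusted p = 0.000819).

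The remaining cell markers gave few calls. Mesothelium, the lining of the fat pad, had 1 rise in 12 genes (Cldn15, 0.90 ± 0.17, adjusted p = 0.00383), lymphatic endothelium 1 fall in 6 and nerve 1 fall in 10. Epididymal epithelium (12 genes tested), sperm and testis (12), ciliated epithelium (14), seminal vesicle and prostate (9), skeletal muscle (9) and the genes of the epididymal depot itself (6) had 0 calls. The ciliated list summed to 81.7 to 349 CPM in Ctrl_CE (median 133.4) and to 45.1 to 280.6 in MetR_CE (median 65.6). All 14 of its genes had a negative log2 fold change.

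Levels of the mice kept at 22 °C, which entered alternative fits but not the main test, place these differences. On a scale common to all 28 eWAT libraries, Acly ran from 437 to 6297 (median 943) CPM in Ctrl_RT and from 309 to 12104 (median 2419) in MetR_RT, against 2086 to 13881 (median 6587) in Ctrl_CE and 433 to 1435 (median 831) in MetR_CE. Both groups at 22 °C thus overlapped with both groups in the cold. Dio2 stood at 0.174 to 1.87 (median 0.76) in Ctrl_RT and 0.212 to 1.49 (median 0.726) in MetR_RT, so that MetR_CE, at 0.332 to 2.71 (median 0.791), overlapped with both and Ctrl_CE, at 2.82 to 7.08 (median 5.41), with neither. For Nnat the 22 °C groups lay between the cold ones by median, with 89.3 to 1577 (median 837) in Ctrl_RT and 250.8 to 3183 (median 694) in MetR_RT, beside 131 to 315 (median 268.7) and 1549 to 3883 (median 2179) in the cold. Thbs2 stood at 11.4 to 57.2 (median 19) and 23.2 to 207 (median 30.4) at 22 °C, and 2 MetR_RT libraries reached the level of MetR_CE. The study left out eWAT libraries of both 22 °C groups as outliers, and these ranges include them. Its mean counts were matched best without Ctrl_RT replicates 2, 4 and 5 and MetR_RT replicate 7. Without these, Ctrl_RT ran from 837 to 1577 CPM for Nnat, above every Ctrl_CE library. For Acly it then ran from 437 to 3256, and the overlaps given for Acly and Dio2 held.

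The same diet contrast in iWAT, the subcutaneous depot, of the same mice (6 MetR_CE and 7 Ctrl_CE libraries) shows where eWAT differed. In a joint edgeR fit of both depots, iWAT had 303 DEGs higher (1.1% of 27525 genes) and 561 lower (2.04%) in MetR_CE. The diet effect itself differed between the depots for 90 genes (0.327%, adjusted p under 0.05), 79 of them with a more negative effect in eWAT. With the mouse as a block the count was 40, and 19 of the 90 were among them. The count rested on single mice: it ranged from 6 without the mouse of Ctrl_CE replicate 1 to 603 without that of replicate 4. It was 7 to 13 without Ctrl_CE replicate 5 (9), 6 (8) or 7 (11) or MetR_CE replicate 4 (13), 5 (7) or 7 (10), 21 to 37 without MetR_CE replicate 1 (37), 3 (21) or 6 (32), and 196 without Ctrl_CE replicate 2.

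Thbs2 had the lowest adjusted p of this test. It rose in eWAT alone of the 2 depots, with 0.05 ± 0.31, adjusted p = 0.982 in iWAT and a difference of 3.01 ± 0.44, adjusted p = 0.00816 (0.00412 with the mouse as a block). Thermogenic genes parted as well: of 23, 5 differed, each lower in eWAT. The difference was -3.90 ± 0.70, adjusted p = 0.0175 for Elovl3, -2.53 ± 0.44, adjusted p = 0.013 for Cox7a1, -1.93 ± 0.37, adjusted p = 0.0275 for Cox8b, -2.12 ± 0.47, adjusted p = 0.047 for Otop1 and -2.83 ± 0.57, adjusted p = 0.0355 for Fgf21. With the mouse as a block Otop1 kept its call (0.039), and Elovl3 (0.0711), Cox7a1 (0.0704), Cox8b (0.0553) and Fgf21 (0.155) did not. In iWAT, Cox7a1 rose (1.35 ± 0.29, adjusted p = 0.00806). Respiratory chain genes gave 5 differences of 25 (Cox5a, Cox5b, Sdhb, Uqcrc2 and Atp5c1), TCA cycle genes 3 of 24 (Cs, Suclg1 and Mdh2) and clock genes 1, Nfil3 (-1.51 ± 0.33, adjusted p = 0.0415, with the block 0.00819). Ehhadh fell in eWAT and rose in iWAT (0.72 ± 0.20, adjusted p = 0.038), a difference of -1.36 ± 0.28, adjusted p = 0.0367. With the mouse as a block Ehhadh and these 5 respiratory chain and 3 TCA cycle genes did not keep the call, with adjusted p-values of the difference (edgeR) from 0.0812 for Suclg1 to 0.148 for Cs.

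For most lipid synthesis genes the depots were not shown to differ. Of 26 lipogenesis genes, 4 fell in iWAT and 2 differed (Elovl3 and Scd3, neither of which kept the call with the mouse as a block), and of 26 cholesterol genes 5 fell and 0 differed. Acly had -1.19 ± 0.38, adjusted p = 0.0662 in iWAT and a difference of -1.80 ± 0.51, adjusted p = 0.106, and Insig1 -0.64 ± 0.30, adjusted p = 0.23 and -1.62 ± 0.41, adjusted p = 0.0799. The medians in iWAT were -0.61 and -0.50. Imprinted genes rose there too, 7 of them, with Nnat at 2.88 ± 0.29, adjusted p = 3.24e-06, Peg3 at 2.14 ± 0.26, adjusted p = 4.19e-05 and Mest at 3.51 ± 0.57, adjusted p = 0.00117, and 0 differed. In iWAT 12 of 34 collagen and matrix genes and 8 of 15 macrophage markers fell, beside 3 and 1 in eWAT, and 0 of these genes differed by the test of the difference.

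**Figure D5:**
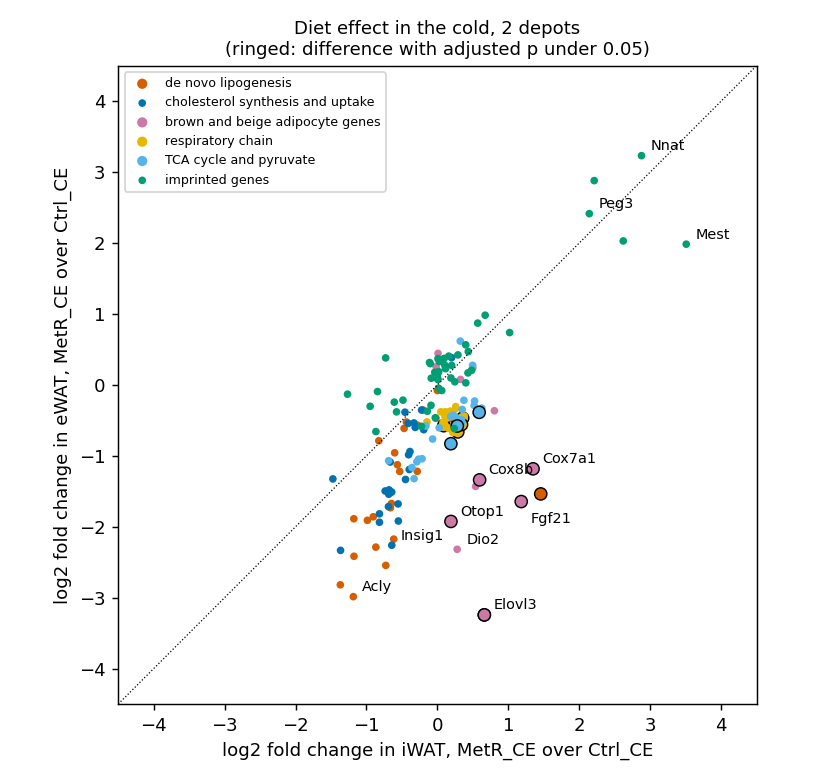
Log2 fold changes of MetR_CE over Ctrl_CE in iWAT (x axis) and eWAT (y axis), from 1 joint fit, for members of 6 gene lists with a mean of at least 1 CPM in either eWAT group; the dotted line marks equal change, and ringed points have a difference with adjusted p under 0.05. Thermogenic genes such as Elovl3, Cox7a1 and Fgf21 lie to the right of 0 in iWAT and below it in eWAT, and Nnat and Peg3 lie near the line.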

How the data were processed

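The authors deposited counts per gene, by Ensembl identifier and without normalization, for polyA RNA of eWAT and iWAT. All are whole numbers. The study's methods and the submitters' notes name STAR 2.7.9a with featureCounts 2.0.3 and, in parallel, Salmon 1.9.0 on the mm10 assembly. The table names give Salmon, and which tool made the counts is not settled by the values. Columns were given to samples by library name, and 0 were left unused. Symbols were matched for 51948 of 56884 identifiers.

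Counts were normalized by TMM and tested with edgeR 4.0.16 (R 4.3.3), quasi-likelihood, MetR_CE against Ctrl_CE over 14 libraries, without covariates, for genes with at least 10 counts. Adjusted p are Benjamini-Hochberg over all genes tested. DEGs had an adjusted p under 0.05 and a change of at least 1.5-fold, the study's thresholds. A standard error is the log2 fold change divided by the square root of F. The depot difference was an interaction term over 27 libraries. Depots of 13 mice come from the same animals, so that the mouse was used as a block as an alternative (consensus correlation of the mouse in limma 3.58.1, 0.0537). Scripts were tested on simulated counts.

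Alternatives were RLE and upper quartile factors, other filters, DESeq2 1.42.0 with and without apeglm 1.24.0, limma voom, glmTreat, robust dispersions, all 28 or 24 eWAT libraries, the replicate number as a block, leaving out each library, and, chosen after seeing the data, leaving out or adjusting for libraries with epithelial or liver transcripts. Named genes were the 12 largest changes in each direction among DEGs with a symbol, a mean of at least 1 CPM and separate ranges, beside members of 46 gene lists, of which those described were picked after their values were seen. Some genes are not reported here by name, though they stay in the fits and list counts. The groups, lists and motifs were chosen with earlier results of these data known, and 3 lists (imprinted, epithelial and liver genes) after the values were seen. No label says that libraries of a group came from separate litters or days, and p-values measure the spread between these mice. Totals of 22625093 to 33372110 counts per library limit mainly genes below 1 CPM.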

Additional observations from a re-analysis of the deposited data

Results flagged for a closer look

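For 148 genes looked at in each of the 2 groups, there were 30 cases in which 1 library lay apart from the other 6 (a gap wide for the group's range by Dixon's test). Chance flags about 1 in 20 groups where values follow a normal distribution. CPM without a log, as used here, need not do so, and genes of a list are not independent.

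Ctrl_CE replicate 3 was high in genes of dividing cells and matrix. It held Mki67 at 27.7 CPM (the next library at 7.46), Top2a at 28.5, Ccnb2 at 6.65, Cdk1 at 6.33, Iqgap3 at 10.5, Ankle1 at 3.97, Col3a1 at 2630, Thbs1 at 186, Bmp3 at 36.3, Ccl2 at 20.97 and Ranbp3l at 1.12, and was low in Nr1d2 at 37.1.

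Ctrl_CE replicate 4 was low in Scd1 at 8622 CPM (the next library at 68860). It was high in C3 at 3398, Per1 at 120.1, S100a8 at 14.1, S100a9 at 22.8 and Mmp8 at 4.53. The remaining control flags were Slc4a1 at 2.54 in replicate 2 and Ucp1 at 4.93 in replicate 7.

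Among MetR_CE libraries, replicate 1 was high in Lipg at 3.53 CPM and Cidea at 5.18, replicate 2 in Aldh1l2 at 0.509 and S100a9 at 0.8001, and replicate 3 in Otop1 at 1.85. Replicate 4 was low in Ldha at 459.8 and Blcap at 166, and replicate 5 was high in Nnat at 3770 and Gm24505 at 4.43. Replicate 6 was high in Col3a1 at 836.

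The diet effect differed between eWAT and iWAT, by the interaction term, for 17 of the genes followed. It was more positive in eWAT for Thbs2 (difference of 3.01 on the log2 scale). It was more negative in eWAT for Elovl3 (-3.90), Scd3 (-2.99), Fgf21 (-2.83), Cox7a1 (-2.53), Otop1 (-2.12), Cox8b (-1.93), Nfil3 (-1.51), Ehhadh (-1.36), Cs (-1.02), Suclg1 (-0.98), Cox5a (-0.95), Uqcrc2 (-0.90), Mdh2 (-0.86), Sdhb (-0.83), Cox5b (-0.80) and Atp5c1 (-0.66). With the mouse as a block, Thbs2, Otop1 and Nfil3 kept the call and the other 14 did not.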

How the results depend on the processing

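The 1139 DEGs (588 higher, 551 lower) became 132 (67 and 65) when glmTreat tested against the fold threshold itself, and 724 (307 lower) with all 28 eWAT libraries in the fit. With 24 of these, without Ctrl_RT replicates 2, 4 and 5 and MetR_RT replicate 7, there were 1210 (620 and 590). The 1139 became 329 (226 and 103) without the libraries high in liver transcripts, a choice made after seeing the data that leaves 5 against 5. Without the libraries high in epithelial transcripts, chosen likewise and leaving 3 Ctrl_CE against 5 MetR_CE, there were 1675. Other scalings, filters, tools and covariates gave 991 to 1325. Leaving out 1 library gave 878 to 1333 DEGs, 457 to 698 higher and 421 to 635 lower. Of 148 genes followed, 0 reversed in any fit. Of the 120 called, 99 kept their call in every leave-one-out fit and 30 in every fit, and 70 lost it without the libraries high in liver transcripts. The cause was not tested. The depot difference of 90 genes became 40 with the mouse as a block, 113 in limma voom with the mouse as a random block, 52 with RLE factors and 6 to 603 without 1 mouse.

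With the replicate number as a block, 1053 DEGs (569 and 484) were called. Different mice carry the same number, so the numbers were not taken to pair the mice. The correlations of their deviations were 0.691, -0.071, 0.676, 0.65, 0.711, -0.111 and 0.701 for numbers 1 to 7, with 4 of 7 numbers matching their own best. Replicates 1 and 4 of both groups were high in epithelial transcripts, and replicates 5 and 6 of both in liver ones. What lies behind these shared deviations was not tested. Genes below 1 CPM are limited by depth.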
